A study of Homo sapiens with 5 samples.

Results

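Human chromosome 19 carries the largest gathering of C2H2 zinc-finger genes in the genome, most of them named ZNF and a number. The genes described here were the protein-coding rows of the expression table whose symbol was ZNF followed by a number and whose gene lies on chromosome 19 of GRCh38. By this rule 240 genes were annotated, of which 214 had a row among the 13822 rows of the table, and 26 had no row in the table used here. A further 6 genes with a letter after the number (such as ZNF780A) fell outside the rule. Names with such a letter were kept among the ZNF genes on other chromosomes that are compared below.

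Each C2H2 finger is a short loop held by a zinc ion, and a row of fingers reads a stretch of DNA. Most of these proteins carry a KRAB domain, which binds TRIM28 (KAP1), and TRIM28 brings the histone methyltransferase SETDB1, HP1 proteins and deacetylases to the bound DNA. Many members bind transposable elements and keep them silent, and neighbouring members are often recent copies of each other.

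The cells were RH4, an established line of alveolar rhabdomyosarcoma, a childhood muscle tumour. All cultures received siRNA at 30 nM for 24 h, followed by 24 h in fresh medium before RNA was taken. The 3 control libraries received si-SCR, a scrambled siRNA, and the 2 others received si-circVAMP3, an siRNA against the back-splicing junction of circVAMP3, a circular RNA from the VAMP3 gene. Poly-A RNA was made into stranded libraries. The whole reads behind the values came to 26941970, 25532699 and 25436129 in si-SCR 1, 2 and 3, and to 18980856 and 29371147 in si-circVAMP3 1 and 2. A median member was covered by 315, 301.5, 317, 232 and 378.5 reads in the same order. The study's methods call the libraries of each group biological replicates, and the labels say no more of how the cultures were kept apart, so the p-values measure the spread between these libraries. Mitochondrial transcripts took 20.9%, 21.7% and 20.9% of summed FPKM in the controls and 19.6% and 18.6% after knock-down, and ribosomal protein genes took 8.86%, 8.73% and 9.19% against 10.4% and 10.7%. The part of these shifts in the results that follow was not tested.

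The siRNA is shown because its letters return in some of the transcripts below. It is given as listed by its designers, with capitals on the bases that pair with bases 2 to 8 of its other strand.
si-circVAMP3 siRNA: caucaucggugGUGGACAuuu
Its first 8 bases were the end of exon 4 of the VAMP3 reference transcript (chr1:7778162-7778169, plus strand, GRCh38) and the next 11 were the start of exon 3 (chr1:7777160-7777170), an order that only a back-splice gives. The last 2 bases are overhang. A poly-A library does not report the circular RNA, so circVAMP3 has no value here. The linear VAMP3 mRNA, which codes for a vesicle SNARE protein, was at 36.4, 35.4 and 37.4 FPKM in the si-SCR libraries and at 29.4 and 30.2 FPKM in the si-circVAMP3 libraries. FPKM is a count of fragments scaled by gene length and by the fragments counted in the library. The log2 difference was -0.29 (SE 0.0438, adjusted p = 0.00513, limma with Benjamini-Hochberg adjustment), with both knock-down libraries below all 3 controls. Without si-circVAMP3 1 the adjusted p was 0.0520.

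The cells carried the markers of their label. All 10 alveolar rhabdomyosarcoma markers had a row. MYOD1, the muscle master regulator, stood at 84.3 to 127 FPKM, and DES, the muscle filament desmin, at 248 to 291 FPKM. MYOG (myogenin) was at 175, 179 and 149 FPKM in si-SCR and at 101 and 96.6 FPKM in si-circVAMP3. The summed level of the list was 960.5, 935, 794.5, 755 and 769 FPKM over the 5 libraries, and 2 of its genes, MYOG and CHRNG, were called lower, beside 15.3% of all tested genes. The median log2 difference of the list was -0.24. None of the 5 immune markers had a row. Of the 5 epithelial markers CLDN4 had a row, at 0.104, 0.0936 and 0.128 FPKM in si-SCR and 0.241 and 0.266 FPKM in si-circVAMP3, below the level tested, and of the 5 endothelial markers PECAM1 did, at 0.0777 to 0.153 FPKM. The fibroblast list summed to 35.5, 32.8, 33.3, 31.1 and 28.6 FPKM, nearly all of it COL3A1, while COL1A1 stayed at 0.127 to 0.233 FPKM and LUM had no row. COL3A1 was at 33.6, 31.1, 31.5, 29.5 and 27.1 FPKM and was not called. The part of these marker levels in the results on ZNF genes was not tested. In bulk RNA, fewer cells of a type and less RNA per cell cannot be told apart.

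Members were transcripts of low to moderate level. The mean over the 5 libraries ran from 0.126 FPKM (ZNF814) to 42.9 FPKM (ZNF146), with a median of 2.18 FPKM, against 4.78 FPKM for all rows and 3.43 FPKM for ZNF genes on other chromosomes. In the whole set 5 members passed 10 FPKM. ZNF146, a protein made of little but fingers, was at 42.0, 40.3 and 44.7 FPKM in si-SCR and at 43.97 and 43.68 FPKM in si-circVAMP3, and ZNF302 came next. Summed over the 214 members, expression was 624, 642 and 658 FPKM in the controls (mean 641 ± 16.7 SD, n = 3) and 660 and 672 FPKM after knock-down (mean 666 ± 8.34 SD, n = 2). The knock-down sums lay above the control sums by less than the range among the controls. No test was run on the sum, for which an exact permutation of 3 against 2 libraries cannot give a two-sided p below 0.1.

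After knock-down of circVAMP3, 12 members rose and 5 fell among the 208 that passed the filter (a mean of at least 0.3 FPKM), at an adjusted p below 0.05 in limma on log2(FPKM + 0.1), a scale that understates the change of low genes. That is 8.17% of the tested members. Over all 12943 tested genes 28.9% were called, 13.6% higher and 15.3% lower, whereas 5.77% of the members were called higher and 2.40% lower. ZNF genes on other chromosomes were called in 16.0% of 219 cases (20 higher, 15 lower), and other protein-coding genes of chromosome 19 in 24.3% of 642 (108 higher, 48 lower). Of 14 other zinc-finger genes on chromosome 19 (ZFP, ZSCAN, ZIM, ZIK and ZBTB genes and PEG3) 1 was called, and it was lower. The differences between these shares were not tested. The median log2 difference was 0.02 for members, 0.04 for ZNF genes elsewhere, 0.10 for the other chromosome 19 genes and 0.01 for all tested genes.

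The count changed when single libraries were left out, and fewer degrees of freedom remained in those fits. The sign of the log2 difference changed for no called member. Without si-SCR 2 there were 5 members higher and 1 lower, and without si-SCR 3 there were 20 higher and 7 lower, with 16.8% and 31.0% of all genes called. Without si-circVAMP3 1 the count was 1 higher and 1 lower (10.0% of all genes called). Without si-circVAMP3 2 it was 0 higher and 1 lower in limma (9.84% of all genes called), while 10 members in each direction had an unadjusted p below 0.05. In these last fits the lone knock-down library is assumed to vary like the controls. Quantile normalization gave 16 higher and 3 lower, when 13.4% of all genes were called higher and 14.2% lower. Without si-SCR 1 the median over members was -0.003, on the other side of 0 from the 0.02 with all libraries. ZNF726 was called in all 17 refits examined gene by gene and ZNF468 in 16 of them.

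The changes were small. Among members the log2 differences had an SD of 0.19, against 0.31 over all tested genes and 0.21 for ZNF genes elsewhere. ZNF726 alone moved by 0.58 or more on the log2 scale, which is 0.481% of the members against 6.46% of all tested genes. Its log2 difference was -0.45 with 1 FPKM added in place of 0.1 FPKM, and -0.78 with 0.01 FPKM. With a log2 difference of at least 0.58 in either direction added to the main call, no member was higher and 1 was lower. Beside that, 1.6% of all genes were higher and 4.15% lower. The highest positive value in the family was 0.48, for ZNF865, named after its value was seen, which was not called (adjusted p = 0.0605, limma with Benjamini-Hochberg adjustment). For 184 of the 208 members (88.5%) the 95% confidence interval lay wholly within 0.58 of zero, as it did for 74.1% of all tested genes. The median SE was 0.0991 for members and 0.0819 for all genes. Without regard to the test, both knock-down libraries lay above all 3 controls for 54 members (26.0%) and below them for 31 (14.9%), against 28.7% and 28.7% of all tested genes. The 17 called members were all of this kind, as were all 3736 called genes of the table.

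**Figure D1:**
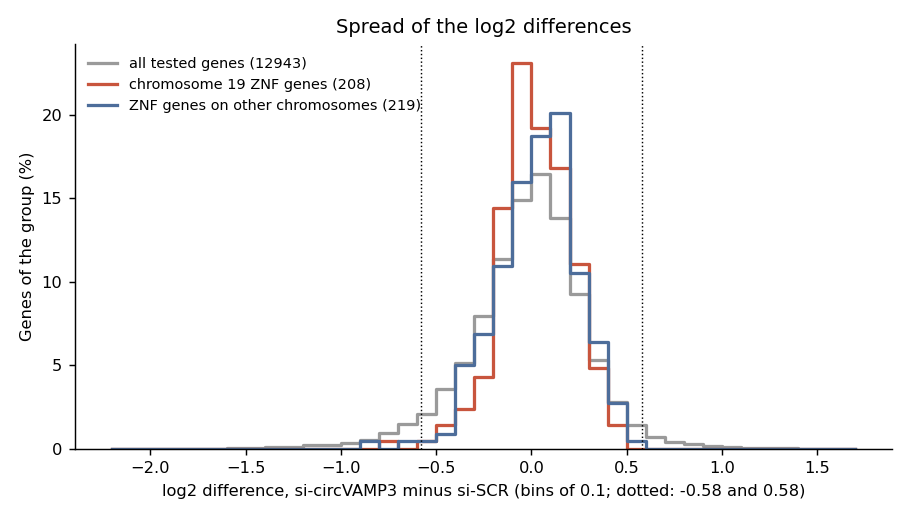
Share of the genes of each group (%) in bins of 0.1 of the log2 difference, si-circVAMP3 minus si-SCR, for the 208 tested members, 219 ZNF genes on other chromosomes and all 12943 tested genes. The members' line is narrower (SD 0.19) than that of all genes (SD 0.31), and 1 member lies beyond the dotted lines at -0.58 and 0.58.

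ZNF726 showed the largest fall. It lies at chr19:23914876-23945159 (plus strand, GRCh38) among the finger genes near the centromere. Its level was 1.75, 1.82 and 1.73 FPKM in si-SCR 1, 2 and 3 and 1.06 and 0.983 FPKM in si-circVAMP3 1 and 2, from 62 to 147 reads a library. The controls lay close together and both knock-down libraries were far below them. The log2 difference was -0.73 (SE 0.0944, 95% interval -0.96 to -0.51, adjusted p = 0.00291 in limma), a change of -39.9%.

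ZNF599 (chr19:34758073-34773229, minus strand) was at 1.33, 1.20 and 1.26 FPKM in the controls and at 0.952 and 0.838 FPKM after knock-down, a log2 difference of -0.46 (SE 0.111, adjusted p = 0.0245 in limma). ZNF875, also known as HKR1 (chr19:37312837-37369365, plus strand), went from 5.52, 5.70 and 6.10 FPKM to 4.36 and 4.81 FPKM, a log2 difference of -0.33 (SE 0.0758, adjusted p = 0.0210 in limma). ZNF45 (chr19:43912624-43935282, minus strand) was at 3.90, 3.87 and 4.23 FPKM against 3.38 and 3.08 FPKM, a log2 difference of -0.30 (SE 0.0800, adjusted p = 0.0330 in limma). In each of these genes the groups did not overlap. ZNF738 (chr19:21358930-21388582, plus strand) was at 6.83, 7.53 and 7.40 FPKM against 6.15 and 6.16 FPKM, a log2 difference of -0.23 (SE 0.0647, adjusted p = 0.0377 in limma). Of its exonic bases 18.3% are shared with another annotated gene of the same strand, which makes its reads less certain.

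Without si-SCR 2 the adjusted p in limma was 0.0604 for ZNF599, 0.0652 for ZNF875, 0.0756 for ZNF45 and 0.122 for ZNF738. Without si-circVAMP3 1 it was 0.0694, 0.141, 0.0821 and 0.163 in the same order, and without si-circVAMP3 2 it was 0.145, 0.0592, 0.192 and 0.156. ZNF599 and ZNF45 also lost their calls without si-SCR 1 (0.0647 and 0.0571) and ZNF738 without si-SCR 3 (0.0550). With all 5 libraries and the same members, ZNF738 was called in 8 of 12 other settings, ZNF45 in 10, and ZNF599, ZNF875 and ZNF726 in all 12. Here and below the 12 settings leave out the required log2 difference of 0.58, which ZNF726 alone passed.

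The siRNA heptamer was searched in the reference transcripts after the values had been seen. The letters GTGGACA, on the transcript's own strand, stand for pairing with bases 2 to 8 of the siRNA strand that complements the listed one. They occurred in 29.9% of the 12906 tested genes with a reference transcript and in 60 of the 208 members (28.8%). Among members called lower they were in 3 of 5 transcripts, and among members called higher in 0 of 12. Over all genes they were in 50.3% of those called lower, 28.0% of those not called and 17.1% of those called higher. The heptamer of the listed strand, CGATGAT, was in 6.45% of all tested genes and 7.27% of those called lower. The 60 members with GTGGACA had a median log2 difference of -0.05 and the 148 without it one of 0.05, and 57 of the 60 were not called lower. Over all genes the medians were -0.08 with the letters and 0.04 without, and 995 of the 3860 genes with them were called lower. Such a match is a description of letters. Transcripts with it were also longer over all genes, with a median of 4279.5 bases against 2716.5 bases. Among members these medians were nearer to each other, at 4127 bases with it and 3999 bases without. The part of the siRNA's letters or of transcript length in the lower levels was not tested.

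The matches in the members called lower are shown as 30 bases of the sense strand of GRCh38, with the heptamer in capitals.
ZNF726, coding sequence, chr19:23932422-23932451, plus strand: atttgaaaaatGTGGACAtgagaatttaca
ZNF599, coding sequence, chr19:34767338-34767367, minus strand: ggacaggaactGTGGACAgtgaagagaggc
ZNF599, coding sequence, chr19:34759362-34759391, minus strand: taggacccacaGTGGACAaaaacccttgga
ZNF45, 3′ UTR, chr19:43912855-43912884, minus strand: ttgcagatctcGTGGACAagtgtttatcaa
Outside the heptamer these stretches differ from each other. ZNF875 and ZNF738 had no match. ZNF573, which has the letters once in its coding sequence, was at 0.544, 0.452 and 0.530 FPKM against 0.311 and 0.437 FPKM and was not called (log2 difference -0.37, adjusted p = 0.154 in limma). Its log2 difference was -0.18 without si-circVAMP3 1 and -0.56 without si-circVAMP3 2.

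**Figure D2:**
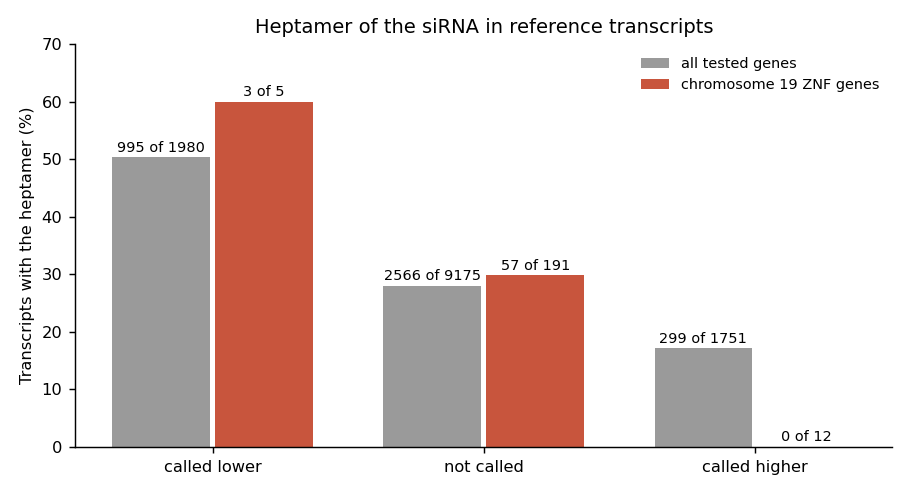
Share of reference transcripts (%) that hold the heptamer, by call, for all tested genes and for the members. The share falls from 50.3% of all genes called lower to 17.1% of those called higher. The members called lower and higher are 5 and 12 genes.

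Of the 12 members that rose, 6 lie close together. Members whose starts were at most 1 Mb apart formed 9 clusters of at least 3 genes. In cluster 8 (chr19:51571283-53580269, 2.01 Mb) 37 members were tested, 6 were called higher and none lower, and the median log2 difference was 0.11. No member of this cluster had an unadjusted p below 0.05 in the lower direction, and limma-voom on recovered reads also called 6 higher and 0 lower. That is 16.2% of the cluster called higher beside 13.6% of all tested genes, a similar share, while 15.3% of all tested genes and 2.40% of members were called lower, and 11 of the 37 differences were negative. Without si-SCR 2 the cluster had 2 higher calls, when 7.38% of all genes were called higher. With either si-circVAMP3 library left out, fewer of the cluster's members and fewer of all genes were called higher. The cluster's median stayed between 0.09 and 0.10 in these refits.

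ZNF468 (chr19:52838010-52857649, minus strand) had the largest called increase of the family. It was at 4.30, 4.09 and 4.21 FPKM in the controls and at 5.43 and 5.68 FPKM after knock-down, a log2 difference of 0.40 (SE 0.0640, 95% interval 0.24 to 0.55, adjusted p = 0.00639 in limma), or a change of 31.5%. ZNF761 (chr19:53431984-53461862, plus strand) was at 3.22, 3.32 and 3.37 FPKM against 4.09 and 4.38 FPKM, a log2 difference of 0.35 (SE 0.0711, adjusted p = 0.0135 in limma). ZNF28 (chr19:52797408-52857600, minus strand) was at 3.19, 3.40 and 3.53 FPKM against 4.398 and 4.237 FPKM, a log2 difference of 0.35 (SE 0.0747, adjusted p = 0.0160 in limma). ZNF28 and ZNF468 start close to each other on the same strand, and 0.490% of the exonic bases of ZNF28 are shared with ZNF468. In all of these the lowest knock-down library stood clear of the highest control. Without si-circVAMP3 2 the adjusted p in limma was 0.0620 for ZNF468, 0.106 for ZNF761 and 0.0802 for ZNF28, and without si-circVAMP3 1 it was 0.0574 for ZNF761 and 0.111 for ZNF28. ZNF28 was also at 0.0546 without si-SCR 2. With all 5 libraries these 3 were called in 12 of 12 other settings.

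ZNF888 was at 2.27, 2.53 and 2.63 FPKM against 3.04 and 3.24 FPKM, a log2 difference of 0.33 (SE 0.0919, adjusted p = 0.0372 in limma). ZNF841 was at 2.58, 2.47 and 2.35 FPKM against 2.98 and 3.25 FPKM, with a log2 difference of 0.32 (SE 0.0840, adjusted p = 0.0299 in limma). ZNF845 was at 2.56, 2.39 and 2.67 FPKM against 3.13 and 3.04 FPKM, with a log2 difference of 0.27 (SE 0.0819, adjusted p = 0.0482 in limma). ZNF845 falls outside the rule for named genes and was chosen after its values were seen. These increases were nearer to the spread of the controls. With all 5 libraries and the same members, ZNF841 was called in 11, ZNF845 in 9 and ZNF888 in 12 of 12 other settings. Without si-SCR 2 the adjusted p in limma was 0.0886 for ZNF888, 0.0858 for ZNF841 and 0.141 for ZNF845, without si-circVAMP3 1 it was 0.116, 0.0864 and 0.213, and without si-circVAMP3 2 it was 0.199, 0.182 and 0.159. Without si-SCR 1 it was 0.0768 for ZNF888 and 0.0877 for ZNF845. All 6 of the called genes in the cluster have a KRAB A-box match, as do 36 of the 37 members of the cluster with a row.

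The promoters of the cluster were compared because 6 of its members were called in the same direction, although 31 were not called. RefSeq promoters (GRCh38.p14, from 250 bases before to 50 after the start) were at hand for 186 of the 208 tested members and 31 of the 37 in the cluster, but not for ZNF28 or ZNF888. Over the 465 pairs in the cluster the median identity was 51.9%, and 35 pairs passed 75%. Of the called members, ZNF468, ZNF845 and ZNF761 were 78.8% to 83.2% identical to each other, while ZNF841, also called, was 53.7%, 56.0% and 55.7% identical to them in that order. The 3 alike promoters, picked from these 4 after the values were seen, follow, with capitals on the longest run shared by all 3, which begins 20 bases before the start in each.
ZNF468, chr19:52857570-52857869, minus strand: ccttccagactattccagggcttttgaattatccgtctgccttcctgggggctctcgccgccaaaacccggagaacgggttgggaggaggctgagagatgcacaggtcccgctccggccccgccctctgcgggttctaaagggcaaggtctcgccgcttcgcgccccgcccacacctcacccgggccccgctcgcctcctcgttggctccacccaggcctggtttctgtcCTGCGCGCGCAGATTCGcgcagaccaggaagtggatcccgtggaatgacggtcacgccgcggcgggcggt
ZNF845, chr19:53333499-53333798, plus strand: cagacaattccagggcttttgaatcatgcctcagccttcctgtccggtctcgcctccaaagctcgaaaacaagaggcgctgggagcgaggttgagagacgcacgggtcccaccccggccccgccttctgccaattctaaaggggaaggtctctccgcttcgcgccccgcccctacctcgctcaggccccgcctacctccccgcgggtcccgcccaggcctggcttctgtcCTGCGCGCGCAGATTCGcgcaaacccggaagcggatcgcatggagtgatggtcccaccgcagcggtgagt
ZNF761, chr19:53431734-53432033, plus strand: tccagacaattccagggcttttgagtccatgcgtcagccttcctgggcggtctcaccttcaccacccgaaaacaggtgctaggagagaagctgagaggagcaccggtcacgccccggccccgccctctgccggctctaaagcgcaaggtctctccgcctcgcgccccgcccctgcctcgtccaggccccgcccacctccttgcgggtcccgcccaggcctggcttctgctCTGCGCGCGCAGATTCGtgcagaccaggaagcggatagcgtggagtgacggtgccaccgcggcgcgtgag
The run of 17 bases, searched on both strands, was in these 3 of 27305 promoters (0.011%), and it was chosen from them. With 30, 28 and 28 CpG dinucleotides the 3 promoters were above the median of member promoters (20.5) and of all promoters (14).

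Other members with similar promoters were not called, and those named here had positive log2 differences in the main fit. The promoter of ZNF701 was 86.0% identical to that of ZNF845, and ZNF701 was at 1.69, 1.41 and 1.46 FPKM against 1.59 and 1.83 FPKM (log2 difference 0.16, adjusted p = 0.348 in limma), with the groups overlapping. ZNF765, at 83.2% identity to ZNF845, had a log2 difference of 0.20 (adjusted p = 0.218), and ZNF611, at 83.1%, one of 0.12 (adjusted p = 0.513), both in limma. These relatives were named after their values had been seen, and whether promoter likeness goes with the difference was not tested. ZNF808, which is needed for development of the pancreas, lies in the same cluster, and its promoter was 78.8% identical to that of ZNF845. The level of ZNF808 was 1.722, 1.702 and 1.505 FPKM against 2.08 and 1.99 FPKM. Its groups did not overlap, but it missed the threshold with a log2 difference of 0.29 (adjusted p = 0.0641 in limma). It was called with quantile normalization (0.32), with no variance trend (0.29) and with each library's trend on GC content removed (0.35), each a log2 difference.

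**Figure D3:**
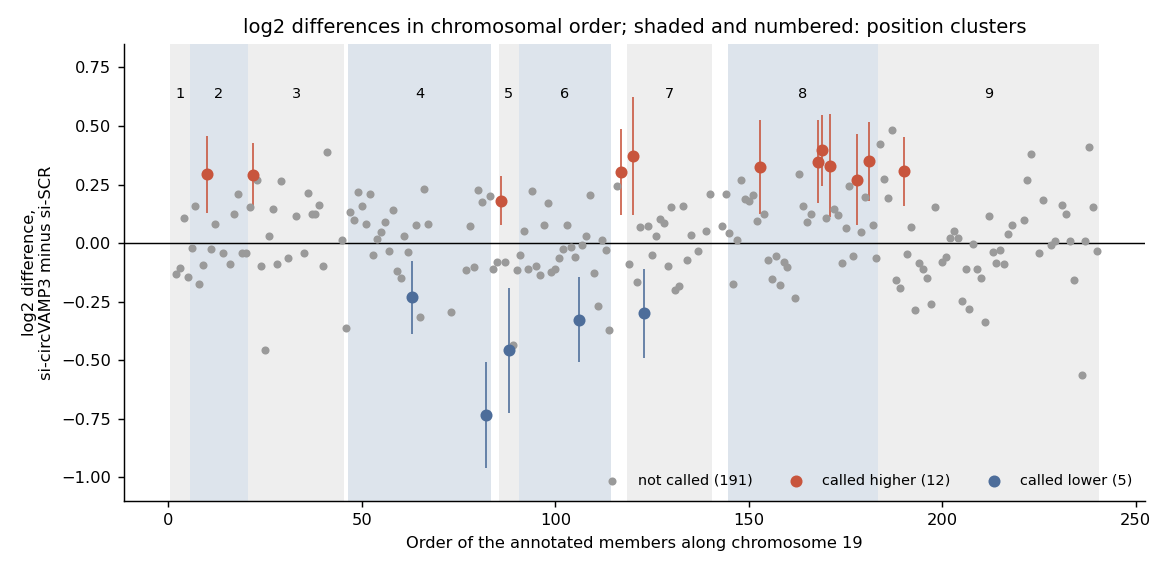
log2 difference (si-circVAMP3 minus si-SCR) of each tested member against its order along chromosome 19, with the 95% confidence interval for called members and numbered bands for the 9 position clusters. In cluster 8 there are 6 called members and all lie above 0. The lowest point is ZNF726 in cluster 4.

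In the other clusters the calls stand beside 13.6% of all tested genes called higher and 15.3% called lower. Cluster 4 (chr19:19668796-24129968) had 29 tested members with 0 called higher and 2 lower, ZNF726 and ZNF738, and a median of 0.07. There 4 members had an unadjusted p below 0.05 upward in limma, and limma-voom called 1 higher. Cluster 9 (chr19:55476617-58481230) was the largest, with 50 tested members, 1 called higher and a median of -0.01. Its largest difference was that of ZNF837, at 0.605, 0.332 and 0.235 FPKM against 0.158 and 0.289 FPKM, from 6 to 33 reads, and the groups overlapped (log2 difference -0.56, SE 0.342, adjusted p = 0.262 in limma). Leaving out single libraries gave -0.27 (without si-SCR 1 or si-circVAMP3 1) to -0.86 (without si-circVAMP3 2). Cluster 6 had 24 tested members with ZNF875 called lower and a median of -0.04. Cluster 3 had 19 with ZNF627 called higher and a median of 0.12, and its largest difference was that of ZNF491, at 0.544, 0.719 and 0.825 FPKM against 0.516 and 0.433 FPKM (log2 difference -0.46, adjusted p = 0.111 in limma). Without si-SCR 1 ZNF491 was called, with a log2 difference of -0.60. Clusters 5 and 7, with 5 and 20 tested members, each had 1 call in each direction. In cluster 2, of 13 members, ZNF317 was called higher. The 4 tested members of cluster 1 were without a call, with no unadjusted p below 0.05 and no call in limma-voom, and the largest difference there was the -0.15 of ZNF77 (adjusted p = 0.444 in limma), which was -0.26 without si-SCR 1 and -0.025 without si-SCR 3.

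Outside cluster 8, 6 members rose. ZNF317 (chr19:9140397-9163424, plus strand), a KRAB protein, was at 10.2, 11.6 and 11.6 FPKM in the controls and at 13.6 and 13.7 FPKM after knock-down, with a log2 difference of 0.29 (SE 0.0691, adjusted p = 0.0220 in limma). ZNF627 was at 5.76, 6.01 and 6.08 FPKM against 7.39 and 7.18 FPKM, a log2 difference of 0.29 (SE 0.0584, adjusted p = 0.0131 in limma). ZNF302, the second most abundant member, was at 19.2, 20.0 and 19.5 FPKM against 22.4 and 21.9 FPKM, a log2 difference of 0.18 (SE 0.0439, adjusted p = 0.0244 in limma). For each of these genes both knock-down libraries lay above all controls. Without si-circVAMP3 1 the adjusted p in limma was 0.111 for ZNF317, 0.0983 for ZNF627 and 0.147 for ZNF302, and without si-circVAMP3 2 it was 0.12, 0.0727 and 0.102. With all 5 libraries ZNF302 was called in 10 of 12 other settings, and ZNF317 and ZNF627 in 12. ZNF302 was also at 0.0597 without si-SCR 1 and 0.0591 without si-SCR 2.

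ZNF428, ZNF581 and ZNF526 have GC-rich transcripts (60.2%, 61.8% and 57.8% G and C). ZNF428, a small protein with a single finger match, was at 15.3, 13.5 and 11.7 FPKM against 17.5 and 17.3 FPKM, a log2 difference of 0.37 (SE 0.106, 95% interval 0.12 to 0.63, adjusted p = 0.0401 in limma). Its lowest value was in si-SCR 3. ZNF581 was at 8.46, 8.86 and 9.29 FPKM against 10.7 and 11.3 FPKM, a log2 difference of 0.31 (SE 0.0621, adjusted p = 0.0133 in limma), and 24.9% of its exonic bases are shared with other genes of its strand, among them ZNF580, so its value is less certain. ZNF526 was at 2.91, 2.87 and 2.68 FPKM against 3.41 and 3.59 FPKM, a log2 difference of 0.30 (SE 0.0769, adjusted p = 0.0284 in limma). In all of these the groups did not overlap. Without si-SCR 2 the adjusted p in limma was 0.0994 for ZNF428, 0.0502 for ZNF581 and 0.0766 for ZNF526, without si-circVAMP3 1 it was 0.175, 0.0570 and 0.103, and without si-circVAMP3 2 it was 0.155, 0.103 and 0.165. With all 5 libraries each was called in 11 of 12 other settings.

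**Figure D4:**
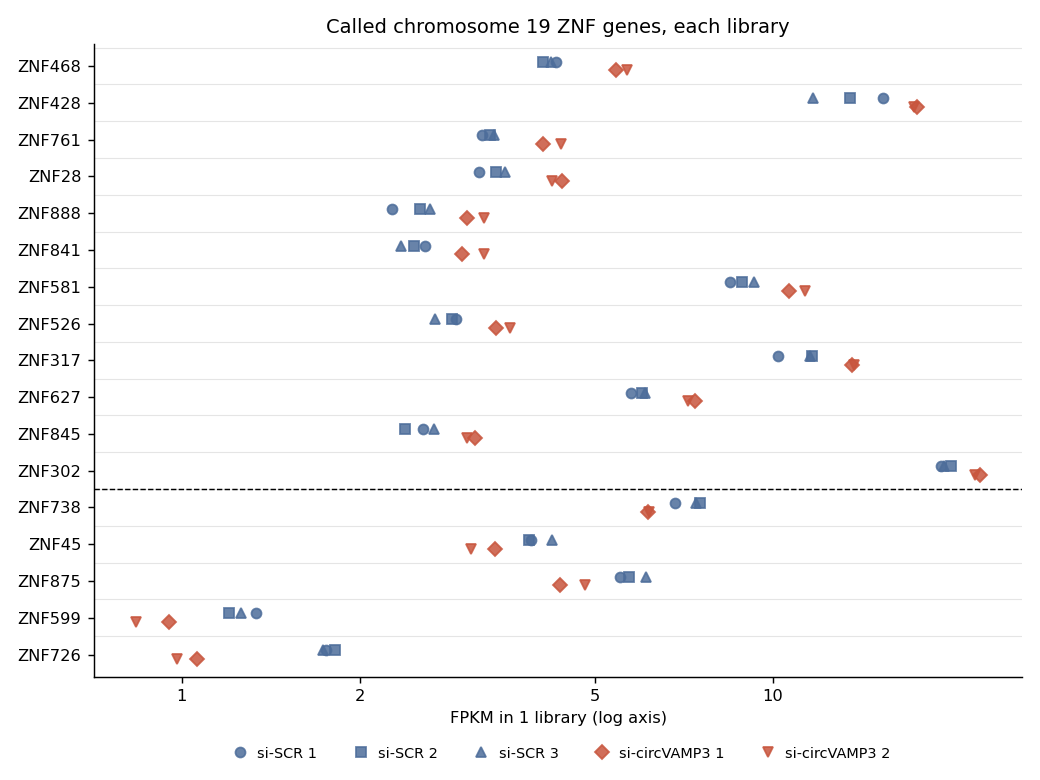
FPKM in each library (log axis) of the 17 called members, ordered by log2 difference, with those called lower under the dashed line. For every gene the 2 si-circVAMP3 libraries lie to 1 side of the 3 si-SCR libraries, with the widest step on this log axis for ZNF726.

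Transcripts rich in G and C were low in si-SCR 3. The 21 tested members with at least 55% G and C had library medians, as deviations from the gene's mean over 5 libraries, of 0.11, -0.03 and -0.19 in si-SCR 1, 2 and 3 and of 0.03 and 0.12 in si-circVAMP3 1 and 2 (log2 scale). The 187 others were at -0.07, 0.00, 0.05, -0.00 and 0.03. Among all tested genes, those rich in G and C were also lowest in si-SCR 3, at 0.05, 0.02, -0.12, 0.03 and 0.06. ZNF358, the fifth most abundant member, was at 11.1, 11.4 and 7.54 FPKM in the controls and at 10.5 and 11.4 FPKM after knock-down (log2 difference 0.16, adjusted p = 0.537 in limma), with si-SCR 3 apart from the other libraries and a log2 difference of -0.03 without it. Among GC-rich members 3 of 21 were called higher (14.3%) and none lower, beside 15.4% higher and 11.2% lower among all GC-rich genes, with a median log2 difference of 0.16 (for all GC-rich genes 0.07). In the lower direction 1 of them had an unadjusted p below 0.05 in limma and limma-voom called 0. With each library's trend on GC content removed, a setting chosen after seeing the data, 27 members were called higher and 4 lower, when 19.8% and 16.1% of all genes were, and the members' median was 0.07. The part of GC content in the members' differences was not tested further.

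**Figure D5:**
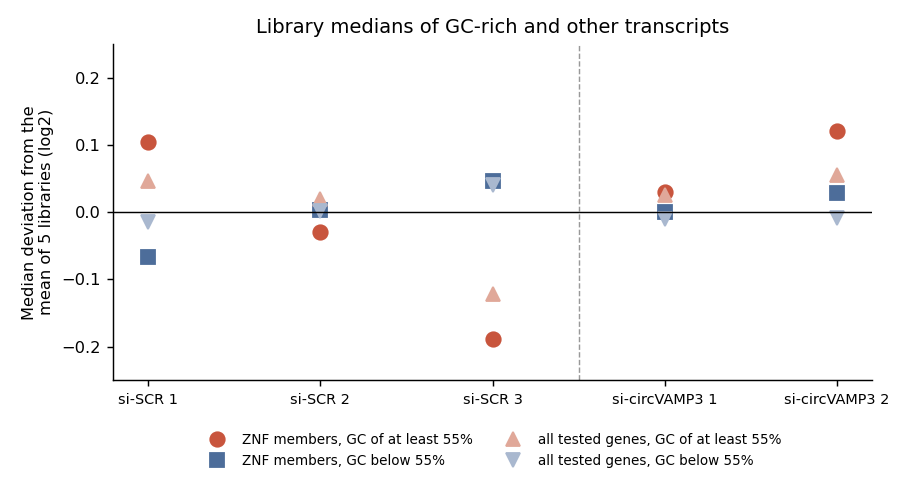
Median deviation of each library from the mean of the 5 libraries (log2), for members and for all tested genes, split at 55% G and C in the reference transcript. GC-rich transcripts are lowest in si-SCR 3, at -0.19 for members and -0.12 for all tested genes.

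Calls were more frequent at higher levels, among members and among all genes. Members below 1 FPKM were called in 0 of 28 cases in limma, where 1 higher and 3 lower had an unadjusted p below 0.05 and limma-voom called 2. From 1 to 3 FPKM 5 of 107 were called (4.67%), and at 3 FPKM or more 12 of 73 (16.4%). All tested genes of the same levels were called in 14.4%, 20.1% and 34.9% of cases. By protein features the shares called stand beside 28.9% of all tested genes and 8.17% of members. Among the 214 members 167 had a KRAB A-box match in the translated reference transcript. Of 164 tested with a match 9 were higher and 4 lower (7.93%), and of 44 without a match 3 were higher and 1 lower (9.09%), with medians of 0.02 and 0.06. The lack of a match does not show that a protein has no KRAB domain. Finger matches ran from 1 to 31 with a median of 12. Members with up to 10 fingers were called in 6.76% of 74 cases, those with 11 to 14 in 8.11% of 74, and those with 15 or more in 10.0% of 60.

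Of the 10 members named for a known role, 0 were called in limma or in limma-voom, and ZNF808 alone had an unadjusted p below 0.05, beside calls for 8.17% of all tested members and 28.9% of all tested genes. The calls of ZNF808 under 3 other settings are the exception. ZNF91, which silences SVA retrotransposons and has 31 fingers, was at 3.22, 3.27 and 3.53 FPKM against 3.13 and 3.08 FPKM (log2 difference -0.10, 95% interval -0.28 to 0.08, adjusted p = 0.362 in limma), with both knock-down libraries below all controls. ZNF93, which binds L1 elements, was at 6.98, 7.42 and 7.97 FPKM against 8.04 and 7.74 FPKM (log2 difference 0.08, interval -0.09 to 0.25). Without si-SCR 1 the log2 difference was 0.04 for ZNF93 and -0.13 for ZNF91, and without si-SCR 3 it was 0.13 and -0.06. ZNF274, which with SETDB1 marks the finger-coding ends of ZNF genes themselves, was at 4.95, 5.22 and 5.54 FPKM against 5.63 and 5.79 FPKM (log2 difference 0.12, interval -0.04 to 0.29, adjusted p = 0.231 in limma). Although its groups did not overlap, ZNF274 missed the threshold.

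ZNF417 and ZNF587, close copies that bind HERV-K elements, were at 1.78, 2.06 and 2.01 FPKM against 2.27 and 2.17 FPKM and at 4.03, 4.68 and 4.43 FPKM against 4.23 and 4.25 FPKM. Their log2 differences were 0.18 and -0.04 (adjusted p = 0.197 and 0.731 in limma). Both knock-down libraries lay above all controls for ZNF417, whereas the groups overlapped for ZNF587. Of the exonic windows of 100 bases 19.2% in ZNF417 and 13.2% in ZNF587 occur again on chromosome 19, so their reads are harder to place. Only 11 of the 214 members reach 5%, and no called member passes 3.22%. ZNF224, known to repress the aldolase A gene, was at 1.7997, 1.8587 and 1.8621 FPKM against 2.04 and 2.07 FPKM (log2 difference 0.15, adjusted p = 0.204 in limma), again without overlap. ZNF568, whose mouse counterpart silences a placental Igf2 transcript, was at 1.45, 1.34 and 1.36 FPKM against 1.498 and 1.435 FPKM (log2 difference 0.08). Its log2 difference was 0.05 without si-circVAMP3 1 and 0.11 without si-SCR 1. ZNF331, an imprinted gene, was at 3.21, 3.87 and 4.04 FPKM against 3.30 and 3.76 FPKM, with overlapping groups (log2 difference -0.07). For ZNF146 the log2 difference was 0.05, with an interval of -0.07 to 0.18. It was 0.02 without si-SCR 2 and 0.09 without si-SCR 3.

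The partners that KRAB proteins work through were counted as a list, and values are given for some of its genes. Of 17 genes of the KRAB corepressor machinery 16 had a row, 1 was called higher and 2 lower, beside 13.6% and 15.3% of all tested genes, and the median log2 difference was -0.00406. TRIM28 itself was at 83.4, 81.8 and 68.6 FPKM in the controls and at 82.7 and 83.2 FPKM after knock-down, with si-SCR 3 again lowest (log2 difference 0.09, 95% interval -0.11 to 0.30, adjusted p = 0.443 in limma). Without si-SCR 3 the log2 difference was 0.0054. SETDB1 was at 8.29, 8.44 and 8.31 FPKM against 8.31 and 8.05 FPKM (log2 difference -0.03, interval -0.15 to 0.10). HDAC1, a histone deacetylase, rose from 48.9, 48.1 and 51.7 FPKM to 60.5 and 59.6 FPKM (log2 difference 0.28, SE 0.0458, adjusted p = 0.00686 in limma).

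The 2 called lower were the de novo DNA methyltransferases. DNMT3A was at 5.75, 5.47 and 6.22 FPKM against 4.25 and 4.29 FPKM (log2 difference -0.43, SE 0.0738, adjusted p = 0.00752 in limma). DNMT3B was at 12.1, 11.5 and 11.2 FPKM against 9.78 and 9.18 FPKM (log2 difference -0.29, SE 0.0587, adjusted p = 0.0138 in limma). All 5 genes of the HUSH list, a complex that silences integrated elements, had a row, and MORC2 was the 1 called, where 13.6% of all tested genes were higher, at 17.7 and 18.2 FPKM against 15.54, 14.97 and 14.98 FPKM (log2 difference 0.24, SE 0.0465, adjusted p = 0.0111 in limma). Without si-circVAMP3 1 the adjusted p in limma was 0.0602 for HDAC1, 0.0585 for DNMT3A, 0.0546 for DNMT3B and 0.0595 for MORC2, and without si-circVAMP3 2 it was 0.0526, 0.0571, 0.104 and 0.0890. DNMT3B was also at 0.0510 without si-SCR 2.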

How the data were processed

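RNA of 5 RH4 libraries was sequenced, 3 si-SCR and 2 si-circVAMP3. The authors trimmed reads with Trimmomatic, aligned them to GRCh38 with STAR 2.5.2b, counted them per gene by strand with HTSeq, removed low genes and deposited FPKM values made with edgeR's rpkm function; bcl2fastq 2.20.0.422 and STAR are also in the submitters' processing notes. The library sizes and gene lengths used were not given in the sources used here. Whole reads were recovered from the ratios of each gene's values between libraries, which after scaling are ratios of whole numbers. For 3.53% of rows exon length was used as well. Gene IDs were matched to GENCODE 44 (13783 of 13822). log2(FPKM + 0.1) was fitted in R 4.3.3 with limma 3.58.1 (trend, Benjamini-Hochberg over 12943 genes with a mean of at least 0.3 FPKM), after tests on simulated data. Named members were the 10 largest called changes each way, the 5 highest levels, the largest difference of each cluster and members with known roles. Members and lists were chosen with earlier results of these data known. Finger and KRAB patterns were searched in translated GENCODE reference transcripts, and promoters came from RefSeq. Alternatives covered the pseudocount, filter, scaling, variance model, replicate block and leaving out each library. A limma-voom fit on recovered reads and a GC correction were added after seeing the data. Python 3.11.15 was used for tables and plots.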

Additional observations from a re-analysis of the deposited data

How the results depend on the processing

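In 20 other settings the 12 higher and 5 lower calls moved as follows. Quantile normalization called 3 lower, a fit with no variance trend 8 lower and limma-voom on recovered reads 9 lower. Of all genes 14.2%, 14.1% and 17.3% were called lower in these settings, against 15.3% in the main fit. The GC correction called 27 higher, when 19.8% of all genes were, and moved the median log2 difference of members from 0.02 to 0.0715. With a log2 difference of at least 0.58 required, limma called 0 higher and 1 lower, where 26 and 14 members had an unadjusted p below 0.05 and limma-voom called 15 and 9 without that requirement. Leaving out each library in turn gave 0 to 20 higher, 1 to 7 lower and medians of -0.00255 to 0.05. With fewer libraries fewer degrees of freedom remain; the causes of the other shifts were not tested. No called member changed sign in the settings run. With a pseudocount of 1 FPKM the log2 difference was -0.45 for ZNF726 and -0.26 for ZNF599, both called. Settings were examined gene by gene for 32 named members and 12 other genes. Of the members not called, ZNF808 was called under 3 of them (quantile normalization, no variance trend, GC correction) and ZNF491 without si-SCR 1. Among those not called, the sign of the log2 difference changed for ZNF358 (-0.0333 without si-SCR 3 and with the replicate block; up to 0.263 without other libraries), ZNF331 (0.0274 without si-circVAMP3 1; down to -0.163), ZNF587 (0.00598 without si-SCR 2 and 0.0104 with the GC correction; down to -0.0998) and ZNF611 (-0.0299 without si-circVAMP3 2; up to 0.275).

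With the replicate number as a replicate block, in which si-SCR 3 has no partner, 10 members were higher and 4 lower. The members' median was 0.03, and 10.6% of all genes were called higher and 12.5% lower. Of the main calls 8 higher and 3 lower were shared with this fit. ZNF302, ZNF526, ZNF841, ZNF845, ZNF738 and ZNF45 lost their calls. Libraries of the same number had correlations of deviations of -0.10 and -0.02, neither of them positive. The deviations of the 2 knock-down libraries mirror each other, so these values cannot decide whether the numbers pair the samples. Members below 1 FPKM had a median SE of 0.156 against 0.0786 at 3 FPKM or more. The part of depth in this difference was not tested.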

Other observations

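Non-coding neighbours of the members were looked at after their values were seen. Of 11 antisense lncRNAs named after a ZNF gene of chromosome 19, 1 was called, and it was lower, where 28.9% of all tested genes were called and 15.3% were lower. Limma called 0 of 6 tested divergent lncRNAs and 0 of 8 tested pseudogenes named in the same way. At an unadjusted p below 0.05 there were 1 higher and 2 lower divergent lncRNAs and 1 lower pseudogene, and limma-voom called 0 of either kind. ZNF571-AS1 was at 0.839, 0.858 and 0.818 FPKM in si-SCR and at 0.355 and 0.356 FPKM in si-circVAMP3, with a log2 difference of -1.04 (adjusted p = 0.00196, limma with Benjamini-Hochberg adjustment). Both knock-down libraries were far below the controls, and the adjusted p stayed at 0.0229 or less without any 1 library. ZNF571-AS1 shares exonic bases with ZNF540 on the same strand (5.93% of those of ZNF540), so part of its reads may be hard to assign.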
